A study of Rattus norvegicus with 12 samples.

Results

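The major histocompatibility complex (MHC) of the rat, called RT1, lies near the start of chromosome 20. It is covered here by the assembled genes that the deposited table places between 1.0 and 5.5 Mb of that chromosome. Positions alone chose them, with no measured value. This gave 146 assembled genes at 91 loci, of 58341 assembled genes at 25606 loci in the whole table and 1198 assembled genes on chromosome 20. A locus is a pair of start and end positions, and several assembled genes can share one. The symbol field is empty throughout, so the label could not be checked against MHC genes and no member can be given a role. The borders are those of the rn6 assembly, although the submitters' processing notes name rn5. Because 106 of its entries lie on scaffolds named as in rn6, and 10 on a Y chromosome, positions are read as rn6.

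The MHC packs together genes of class I and class II molecules, which display peptides to T cells, with genes of antigen processing, complement and cytokines. In the brain, microglia are the usual site of class II expression, and neurons also make class I molecules. Glucocorticoids act through receptors that bind DNA, and they are known to raise some genes and to restrain many immune genes.

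Hippocampi came from 12 male Sprague-Dawley rats of 8 weeks, all without adrenal glands, the main source of corticosterone. The 6 treated rats received corticosterone at 300 µg/kg and the 6 controls received vehicle, and tissue was taken 1 h later. No rat had its adrenal glands, so neither group stands for an intact animal. Titles and protocol name corticosterone, which is followed here, although the treated samples also carry the word cortisone in their source names. Each group enters the table as 1 pooled FPKM value per assembled gene (fragments scaled for transcript length and depth), so the spread between rats is not known and no SD can be given. In such whole tissue, fewer cells of a type and less RNA per cell cannot be told apart.

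A single assembled gene of the region differed between the groups by the authors' q-value. A q of 0.05 or less was reached by 1 of the 131 tested members (0.763%), against 148 of 42839 in the whole table (0.345%). The call was an increase, as were 0.271% of all tested assembled genes. Called decreases were 0.0747% of all and 0 of the members. At an unadjusted Cuffdiff p of 0.05 or less, 5 members had the lower value (3.82%), against 1.1% of all tested assembled genes. With a single call, the share of the members cannot be read as an excess or a lack of calls. On the rest of chromosome 20, 8 of 781 tested assembled genes were called (1.02%), at 6 loci, and all 8 were higher with corticosterone. The remaining 15 members were left untested by Cuffdiff, and their mean over both groups was at most 0.708 FPKM. No member is listed at 0 in either group.

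The called member was a short entry, XLOC_031850, at chr20:3677476-3677838, spanning 362 bp. Its level was 20.8 FPKM in the vehicle group and 42.5 FPKM in the corticosterone group. It rose 2.04-fold, with q = 0.0165 in the authors' deposited table. That q is the smallest there and goes with the smallest Cuffdiff p, 5e-05. It is shared, for example by an entry on the rest of chromosome 20. The interval of XLOC_031850 is the only one of the region in the authors' list of 122 different transcripts, 8 of which lie on chromosome 20. That list comes from the same analysis of the same animals. Within 100 kb of the called entry lay 3 other members. On one side, XLOC_031410 lay 77964 bp away, with 4.44 FPKM in the vehicle group and 5.17 FPKM in the corticosterone group. Its unadjusted Cuffdiff p was 0.0563. On the other side, XLOC_031640, 53127 bp away, had 3.07 FPKM in both groups, and XLOC_031411, 66554 bp away, had 1.52 FPKM with vehicle and 1.00 FPKM with corticosterone. None of these 3 neighbours was called (q = 0.999 for each in the authors' deposited table).

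**Figure D1:**
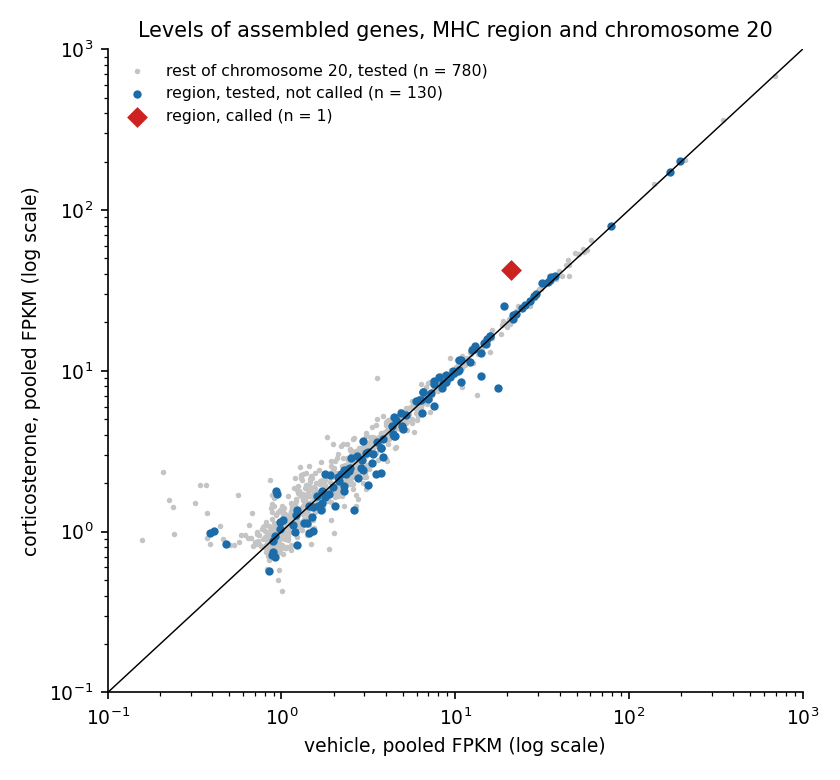
Pooled FPKM with vehicle (horizontal) and with corticosterone (vertical), both on log scales, for 131 tested members (blue, the called one as a red diamond) and 780 other tested assembled genes of chromosome 20 (grey, leaving out 1 listed at 0 with vehicle). The line marks equal values; the called member lies above it at 20.8 and 42.5 FPKM, while the abundant members lie close to it.

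Next in order of q was XLOC_031639, at chr20:3438805-3440002. It had 2.62 FPKM with vehicle and 1.35 FPKM with corticosterone, and its q of 0.0546 in the authors' deposited table lies just above the threshold. Relaxing the threshold to a q of 0.10 adds this assembled gene alone, giving 2 of 131 members against 0.416% of the whole table. The locus that ends 181 bp before it, led by XLOC_031638, had 21.5 and 22.2 FPKM. That neighbour was thus nearly equal in the 2 groups (q = 0.999 in the authors' deposited table).

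The abundant members had nearly equal values in the 2 groups. The highest, XLOC_031617 at chr20:1925265-1985079, had 197.2 FPKM with vehicle and 202.9 FPKM with corticosterone. XLOC_031408 at chr20:3422263-3426380 had 172.2 and 173.6 FPKM, and XLOC_031657 at chr20:4820861-4841639 had 78.8 and 79.9 FPKM. These 3 alone had a mean of 50 FPKM or more, and their values differed by at most 1.03-fold. The other 5 of the 8 most abundant members, XLOC_031656, XLOC_031426, XLOC_031662, XLOC_031438 and XLOC_031664, had 31.8 to 37.7 FPKM with vehicle and 35.0 to 39.0 FPKM with corticosterone. All 8 had the higher value with corticosterone, as did 63.3% of all tested assembled genes between 10 and 50 FPKM and 68.9% of those at 50 FPKM and over. None was called, and the smallest unadjusted p among them in the authors' deposited table was 0.0376, for XLOC_031664 (31.8 and 35.0 FPKM).

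Of the 34 members with a mean of at least 10 FPKM, 30 differed by no more than 1.2-fold (88.2%), as did 96.4% of 84 such assembled genes on the rest of the chromosome. The higher value was with corticosterone in 26 of the 34 members and 57 of the 84 others. The called XLOC_031850 is 1 of the 4 exceptions. It and XLOC_031822 are among only 5 member loci that span under 600 bp. Whether so short a span affects the FPKM was not tested. XLOC_031822 at chr20:1678387-1678571, an entry of 184 bp at the start of the covered part, had 17.7 FPKM with vehicle and 7.86 FPKM with corticosterone. Its difference, 2.26-fold, was the largest among members with at least 1 FPKM in both groups, but it was not called (unadjusted p = 0.0326 and q = 0.999 in the authors' deposited table). XLOC_031430 at chr20:4892648-4939849 had 19.1 and 25.3 FPKM, and XLOC_031441 at chr20:5334093-5445781 had 14.1 and 9.35 FPKM. Neither of these was called.

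As a group, the tested members were centred on no difference. Of the 131, 67 had the higher value with corticosterone and 64 the lower, 51.1% higher against 51.8% in the whole table and 56.6% on the rest of chromosome 20. The median log2 fold change was 0.005, with quartiles of -0.18 and 0.084, against 0.007 in the whole table and 0.033 on the rest of the chromosome. Their median level was 3.84 FPKM with vehicle and 3.66 FPKM with corticosterone. The rest of the chromosome had medians of 2.12 and 2.17 FPKM, so the members were the more abundant set. Fewer of them were untested, 10.3% against 25.8%.

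Because the levels differed, the members were compared with the rest of chromosome 20 within bins of the mean level. The 88 members between 1 and 10 FPKM had a median log2 fold change of -0.042 (quartiles -0.22 and 0.079), and 37 of them had the higher value with corticosterone (42.0%). The 576 others in that bin had a median of 0.031 (quartiles -0.094 and 0.19), with 56.1% higher. Between 10 and 50 FPKM the medians were 0.039 for 31 members and 0.045 for 73 others. Below 1 FPKM they were -0.022 for 9 members and 0.003 for 121 others, of which 1 is listed at 0 with vehicle and has no fold. Weighted by the members in each bin, the median difference was -0.053 on the log2 scale. It was -0.067 with 10 bins at the members' deciles, -0.039 with 1 added to each value, -0.029 with 1 assembled gene per locus and -0.027 against all chromosomes. These differences are small beside the quartiles of either set, and they carry no test, because assembled genes are not replicates.

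**Figure D2:**
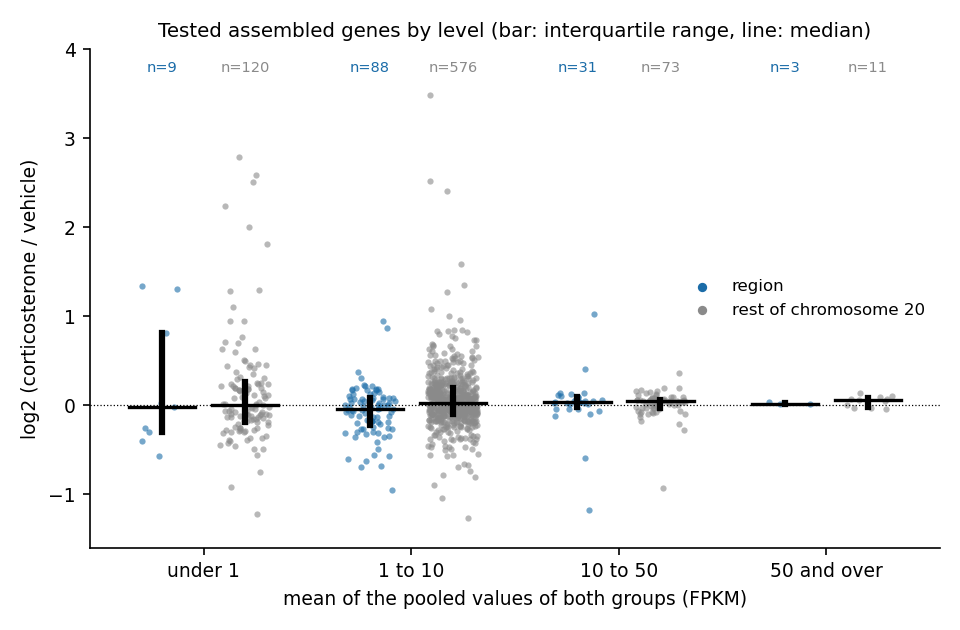
Log2 of corticosterone over vehicle (vertical) by mean FPKM of both groups (horizontal), for members (blue) and the rest of chromosome 20 (grey), 1 point per tested assembled gene with a finite value. Thick bars span the quartiles and lines mark medians; the bins overlap widely, and the medians between 1 and 10 FPKM are -0.042 and 0.031.

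Larger differences were seen in a minority of members and went both ways. A change of at least 1.5-fold was seen in 13 of 131 members, 6 higher and 7 lower, or 9.92% against 6.36% in the whole table (3.58% higher and 2.78% lower) and 7.68% on the rest of the chromosome. Under 1 FPKM these were 3 of the 9 members (33.3%), against 14.3% in the whole table and 17.4% on the rest of the chromosome. Between 1 and 10 FPKM they were 7 of the 88 (7.95%), against 5.52% and 6.60%. Between 10 and 50 FPKM they were 3 of the 31 (9.68%), against 0.65% and 1.37%. An unadjusted p of 0.05 or less was found in 10 members, 5 higher and 5 lower, or 7.63% against 2.92% in the whole table (1.83% higher and 1.1% lower) and 4.35% on the rest of the chromosome, in the authors' deposited table. Among these 10, XLOC_031832 and XLOC_031626 lay close together, as did XLOC_031837 and XLOC_031839, and whether such neighbours vary separately was not tested. XLOC_031641 rose 1.83-fold, with 0.94 and 1.71 FPKM, and XLOC_031417 rose 1.93-fold, with 0.93 and 1.79 FPKM. Both lay just below 1 FPKM with vehicle, and their q-values in the authors' deposited table were 0.576 and 0.999. Among members with at least 1 FPKM in both groups, the increases after the called one reached at most 1.33-fold. They were XLOC_031430 (above), XLOC_031416 with 1.77 and 2.29 FPKM, and XLOC_031824 with 2.97 and 3.66 FPKM, followed by XLOC_031394, XLOC_031410, XLOC_031836 and XLOC_031668 between 1.14-fold and 1.17-fold. The largest decreases after XLOC_031822 and XLOC_031639 were XLOC_031855 with 3.14 and 1.95 FPKM and XLOC_031439 with 3.73 and 2.32 FPKM. XLOC_031841, XLOC_031411, XLOC_031441 and XLOC_031643 followed between 1.41-fold and 1.55-fold. Apart from XLOC_031639, each of these uncalled members with at least 1 FPKM in both groups had q = 0.999 in the authors' deposited table.

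Members were unevenly spread along the region. The region held 20.2 loci per Mb, against 9.19 per Mb over the rest of the chromosome between its first and last entries. Neighbouring loci lay a median of 1998 bp apart, and 34 of 90 neighbouring pairs lay within 1 kb of each other. Their median span was 4952 bp, against 7214 bp on the rest of the chromosome. No entry lay in the first 678387 bp of the region. The widest inner gap, 607878 bp, ran from 2517754 to 3125632. Just outside the borders, XLOC_031821 at chr20:844836-846598 had 9.51 FPKM in the vehicle group and 9.11 FPKM in the corticosterone group, while XLOC_031444 at chr20:5519222-5526125 was untested with 0.47 and 0.50 FPKM. At the locus after it, chr20:5526669-5565740, XLOC_031445 had 60.6 and 65.0 FPKM and XLOC_031671 had 8.79 and 8.49 FPKM. Just inside the upper border, XLOC_031670 had 5.23 and 5.33 FPKM. No entry crossed a border.

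**Figure D3:**
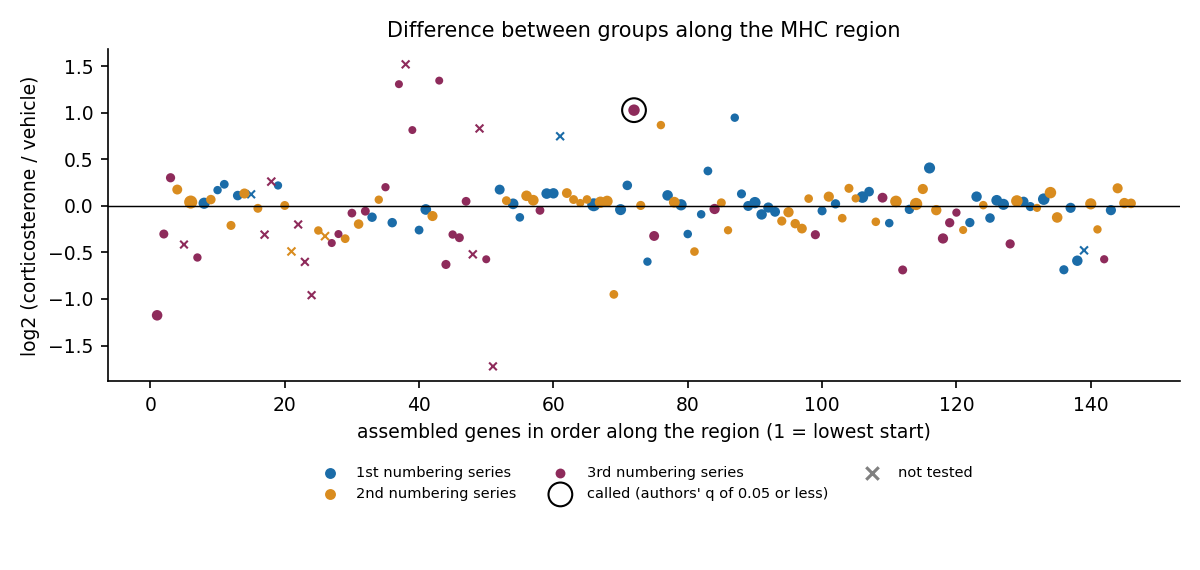
Log2 of corticosterone over vehicle (vertical) for all 146 members in order along the region (horizontal), coloured by the series of identifiers they belong to. Crosses are untested, larger dots are more abundant and the ring marks the called member at 1.03; most dots sit near 0, with a lower stretch of 12 loci between orders 21 and 32.

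Short stretches of neighbouring loci pointed in 1 direction. They were singled out after their values were seen and carry no test. From 2387537 to 2465994, 12 neighbouring loci with 1 assembled gene each all had the lower value with corticosterone. The longest stretches of 1 direction on the rest of chromosome 20 had 7 loci. Among these, the stretch from 18594006 to 18740597 was also lower with corticosterone. Its median log2 difference was -0.62, and 1 of its 7 assembled genes was tested. The 12 had 0.42 to 4.99 FPKM with vehicle and 0.27 to 4.36 FPKM with corticosterone, with a median log2 difference of -0.31. The most abundant, XLOC_031627, had 4.99 and 4.36 FPKM. XLOC_031626 had 2.28 and 1.78 FPKM, and XLOC_031832 had 0.91 and 0.69 FPKM with the smallest q of the stretch, 0.305 in the authors' deposited table. Only 7 of the 12 were tested, and 2 of the 7 had an unadjusted Cuffdiff p of 0.05 or less, as did 2.92% of the whole table. Whether these loci belong to fewer, longer transcripts was not tested.

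Stretches in the opposite direction were shorter. The longest, from 3344866 to 3438624, had 6 loci with 10 assembled genes, all higher with corticosterone by a median of 0.069 on the log2 scale, and none of the 9 tested had an unadjusted p of 0.05 or less in the authors' deposited table. Another, from 4542338 to 4615371, had 4 loci with a median of 0.12. The called member lay in a stretch of 3 loci, from 3582713 to 3740092, with a median of 0.22. A larger median, 1.31, was found in a sparse stretch at the far side of the wide gap. From 3125632 to 3133773, 3 neighbouring loci all had the higher value with corticosterone. XLOC_031837 had 0.41 FPKM with vehicle and 1.01 FPKM with corticosterone, and XLOC_031839 had 0.48 and 0.84 FPKM. Their q-values in the authors' deposited table were 0.226 and 0.439. XLOC_031838, between them, was untested with 0.25 and 0.72 FPKM. The long locus that follows, at 3135652 to 3286503, is led by XLOC_031401, which had 15.1 and 14.7 FPKM.

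**Figure D4:**
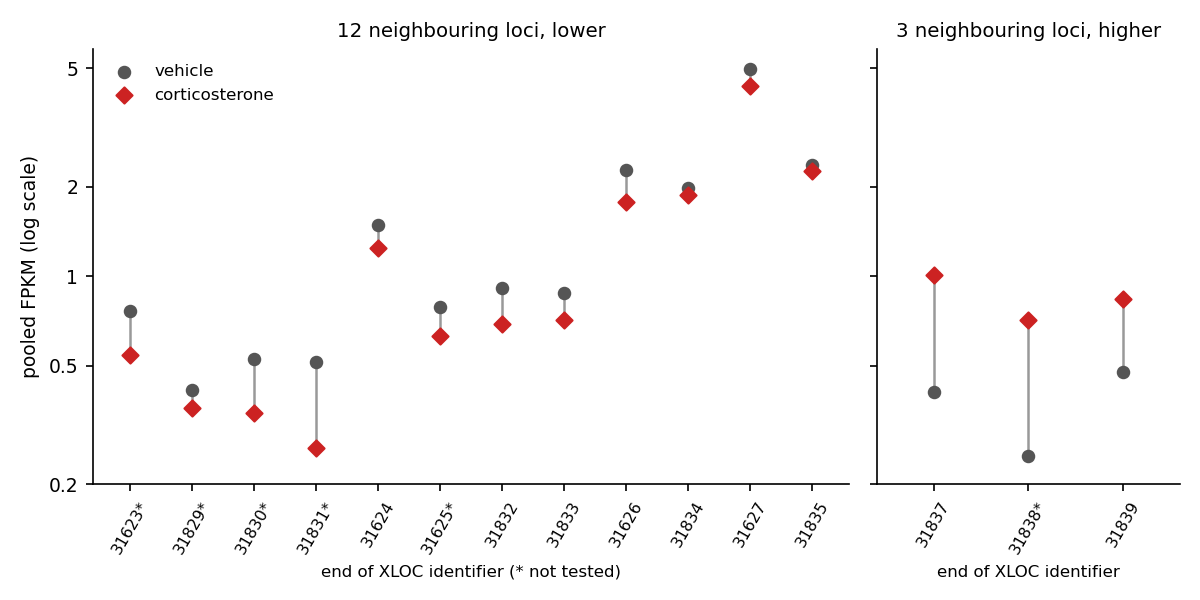
Pooled FPKM (vertical, log scale) with vehicle (grey dots) and corticosterone (red diamonds) for each assembled gene (horizontal) of the stretch of 12 loci (left) and of 3 loci (right). Asterisks mark untested entries; all 12 on the left are lower with corticosterone, from XLOC_031627 at 4.99 and 4.36 FPKM down to values under 1 FPKM, and all 3 on the right are higher.

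Several assembled genes shared 24 of the 91 loci (26.4%, against 23.6% on the rest of the chromosome). The locus with most, at chr20:4317275-4517131, held 13, all tested. Its leading XLOC_031420 had 28.4 FPKM with vehicle and 29.1 FPKM with corticosterone, and the 12 others had a median log2 fold change of -0.066, ranging from -0.31 to 0.95. At chr20:3135652-3286503, with 11 assembled genes, the 8 other tested ones ranged from -0.63 to 1.35 around a median of -0.28. At chr20:5334093-5445781, with 7, the leading XLOC_031666 had 24.2 and 24.6 FPKM, and all 5 other tested ones had the lower value, with a median of -0.57. None of the assembled genes at these 3 loci was called (smallest q = 0.999 in the authors' deposited table). Over 22 loci with a further tested assembled gene, the median of the others was the larger difference at 16. Over these loci the median size was 0.13 for the others' medians and 0.040 for the leading ones. The others' median had the direction of the leading one at 9 of the 22. Leading ones are the most abundant by choice, so this comparison is not separate from level. In the whole table the quartiles were -0.026 and 0.079 between 10 and 50 FPKM, and -0.12 and 0.13 between 1 and 10 FPKM.

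**Figure D5:**
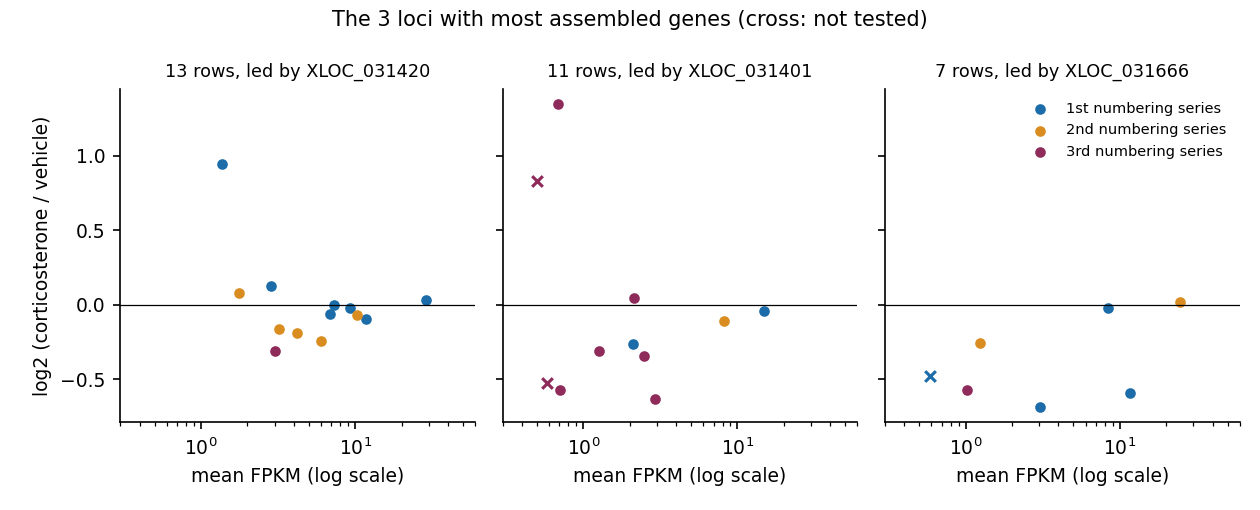
Log2 of corticosterone over vehicle (vertical) against mean FPKM (horizontal, log scale) for every assembled gene of the 3 loci with most members, 13, 11 and 7. In each panel the most abundant assembled gene, at the right, lies near 0, at 0.035, -0.038 and 0.022, while the sparse ones spread from -0.69 to 1.35; crosses are untested.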

How the data were processed

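The values are the authors' own. Cuffdiff 2.2.1.3, Cufflinks 2.2.1.0, TopHat 0.9 and Bowtie2 0.6 appear in the submitters' processing notes. The sources used here do not give scaling, dispersion model, strand setting or treatment of reads with several matches; the treatment of such reads matters in the MHC, a region of closely related gene copies whose reads can be shared. Per the file headers, the deposited table gives FPKM per group, a log2 fold change of Control over Cort, p-values and q-values. The sign was turned here, so positive means higher with corticosterone. The deposited log2 value matched the ratio of values within 0.001 in 58263 of 58271 entries with both above 0. The scores, a deposited statistic and the code of the deposited transcript list, were left aside. Conditions were matched to sample titles.

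Counts, medians and bins of mean level (edges at 1, 10 and 50 FPKM) were computed with pandas 2.3.3. The medians, the differences within bins and the q adjustment were tested on simulated data, and the counts were not. No new test was fitted, as each group has 1 value. Depth is unknown. No interval is given, because assembled genes are not replicates. Named members are those with a q of 0.10 or less and the 8 largest rises and falls with at least 1 FPKM in both groups. The 8 most abundant, the leading ones of the 3 loci with most entries and those within 100 kb of a call were also named. Stretches, edges, the 4 exceptions at 10 FPKM or more, XLOC_031417 and XLOC_031641 were added after seeing values. The members and lists were chosen with earlier results of these data known. MHC and cell type gene lists matched 0 entries, since none has a symbol. Sequences were not printed, because no entry could be matched by name and the reference at hand is of another assembly, GRCr8.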

Additional observations from a re-analysis of the deposited data

How the results depend on the processing

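The count of called members was also 1 with adjustment over entries of at least 1 FPKM, a change of at least 1.5-fold, loci counted once, and borders 0.5 Mb narrower, 0.5 Mb wider or by overlap. A q of 0.10 or less gave 2 members. A q of 0.01 or less gave 0, because the smallest q in the authors' deposited table is 0.0165. An unadjusted Cuffdiff p of 0.05 or less was found in 10 members (7.63%), against 2.92% in the whole table. With the most abundant assembled gene per locus, 61.0% of members were higher with corticosterone, against 51.1%. Under that setting the median log2 fold change was 0.022 and the median vehicle level 4.97 FPKM. Under the other alternatives the share lay between 49.3% and 53.4%, the median log2 fold change between -0.004 and 0.012 and the median vehicle level between 3.24 and 4.44 FPKM. The median log2 fold change thus changed sign with the entries counted. Recentring on all tested entries, by 0.007, turned XLOC_031640 from 0.005 to -0.0025; the other named members kept their direction, which a pseudocount cannot turn. No entry crosses a border, so overlap and containment give the same members. No paired analysis was possible because the 6 animals of a group share 1 value; leaving out animals was not run for the same reason.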

Other observations

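The identifiers of the assembled genes run through chromosome 20 in 3 ascending series of positions, as they do on each of the 21 chromosomes made up of the numbered ones and X. The sources used here do not say what separates the series. This description was chosen after the values were seen and has no test. The third series held the short and sparse entries: its members had a median locus span of 2086 bp, against 13115 and 11357 bp in the first and second. It made up 26.7% of members and 69.8% of the entries on the rest of the chromosome. In the first and second series, tested members had a median of 4.92 FPKM with vehicle, against 4.80 FPKM on the rest of the chromosome. The third series had 2.36 and 1.47 FPKM. Untested were 5.77%, 3.64% and 25.6% of members in the 3 series, against 9.88%, 8.90% and 32.8% of the others. The 29 tested members of the third series, at 23 loci, had a median log2 fold change of -0.30, and 21 of them (72.4%) had the lower value with corticosterone. On the rest of chromosome 20 the third series had a median of 0.013 over 493 tested entries, with 47.5% lower, and on all other parts of the genome -0.007 over 28575, with 51.3% lower. With 1 entry per locus, 17 of 23 members were lower, with the same median. Without the 3 loci with most assembled genes the median moved to -0.078, while 15 of 21 (71.4%) were still lower. The size of the median thus depended on which entries were counted. Between 1 and 10 FPKM, 17 of 21 tested members of the third series were lower (81.0%). There, 46.7% of the third series were lower on the rest of the chromosome and 51.1% on all other parts of the genome. Members of the first and second series had a median of 0.022 over 102 tested entries, with 42.2% lower. On the rest of the chromosome these 2 series had a median of 0.045 over 287, with 36.6% lower. The single called member belongs to the third series and went the other way. By Cuffdiff's q, no member that was lower with corticosterone was called. At an unadjusted Cuffdiff p of 0.05 or less, 5 members of the region were lower (3.82%), against 1.1% in the whole table.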
